A study of Mus musculus with 11 samples.

Results

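The members of TGF-beta and activin signaling described here were Tgfb1, Tgfb2, Tgfb3, Inhba, Inhbb, Tgfbr1, Tgfbr2, Tgfbr3, Fst and Smad7. Every array probe set annotated to a single gene among these 10 was taken, which gave 11 probe sets of the 12422 tested, or 10 genes of the 8251 that had a single-gene probe set. Only Tgfb3 had more than 1 probe set. The members were measured in all 11 samples.

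PN1a (hyperplasia I, 5 samples) and PN1b (hyperplasia 2, 6 samples) are a pair of premalignant mammary lines of p53-null (Trp53-/-) Balb/c epithelium, which trace back to opposite glands of 1 animal and have been maintained as grafts through more than 10 transplant generations. PN1a has a high and PN1b a low tumor-forming potential. The tissue was grown in the cleared fat pads of female syngeneic wild-type Balb/c hosts aged 3 weeks, and RNA of the whole gland was hybridized to Affymetrix MG_U74Av2 arrays at 8 weeks post-transplantation. Both groups therefore share p53-null epithelium and wild-type host stroma, each group is 1 line, and no gland without a lesion was analysed here. In whole glands, fewer cells of a type and less RNA per cell cannot be told apart. Whether each sample is a separate mouse or a pool is not given, so the p-values measure only the spread between these samples.

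TGF-beta and activins are secreted dimers of one ligand family. They bind pairs of type II and type I receptor kinases at the cell surface, which phosphorylate Smad2 and Smad3, and these enter the nucleus with Smad4. Follistatin, encoded by Fst, binds activins outside the cell and keeps them from their receptors, while Smad7 blocks the receptors from within. In the mammary gland TGF-beta is known as a restraint on ductal growth, and it also drives synthesis of extracellular matrix.

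Values are linear intensities as deposited, compared on the log2 scale as PN1a minus PN1b with limma (two-sided, Benjamini-Hochberg adjustment over all 12422 probe sets). A probe set was called at an adjusted p under 0.05 with a fold change of at least 1.5. Median intensity by sample ranged from 8.57 to 8.94 for PN1a, against 8.88 to 9.51 for PN1b, and precision is limited by how few arrays there are. By their mean log2 intensity, 7 of the 11 member probe sets lay at or above the median of all probe sets and 4 lay below it, and none was left out. Within PN1a, samples 1 and 2 differed from the rest: over all probe sets they correlated with PN1a 3, 4 and 5 at r of 0.857 to 0.905, while those 3 correlated among themselves at 0.949 to 0.962. The sample titles have 3 kinds of ending, whose meaning is not given. All 5 PN1a samples share 1 ending with PN1b 5 and PN1b 6 (ending class 1), and PN1b 1 to 4 carry the other 2, so values within ending class 1 are given beside the results.

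Fst, the gene of follistatin, was the only member called. It fell 4.23-fold in PN1a relative to PN1b, and its groups alone did not overlap. None of the 5 ligand genes, 3 receptor genes or Smad7 passed the test in either direction, which does not show that they were unchanged. Of the 11 member probe sets, 0 were called higher and 1 was called lower, or 9.09%, while 2.49% of all probe sets were called (0.869% higher and 1.62% lower). Groups that did not overlap occurred at 3.96% of all probe sets, with PN1a below PN1b at 2.38%. At an unadjusted p under 0.05 in limma stood 4 of the 11 member probe sets (2 higher and 2 lower), and 18.9% of all probe sets. The methods' t-test, at p under 0.01 with the same fold, likewise called 0 members higher and 1 lower (Fst), where it called 5.74% of all probe sets. The median log2 difference over the 11 was -0.34, against -0.01 over all probe sets, with 4 above 0 and 7 below.

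**Figure D1:**
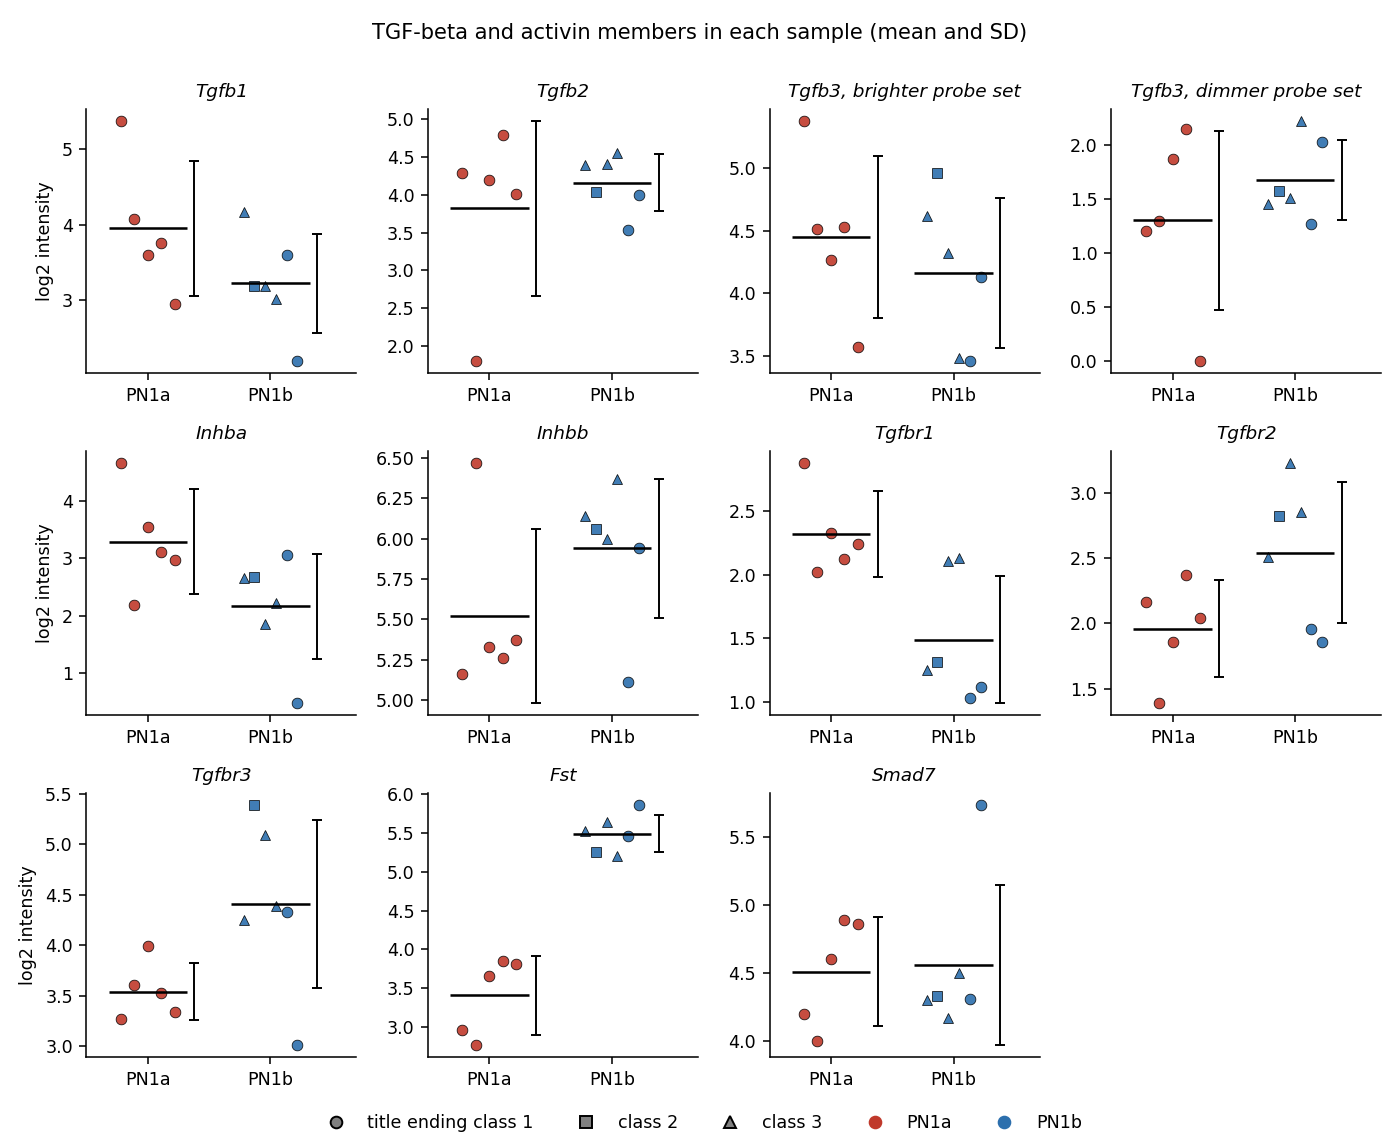
Log2 intensity (vertical axis, a separate range for each panel) of the 11 member probe sets in 5 PN1a (red, left) and 6 PN1b (blue, right) samples, with the mean as a line, the SD as a bar and marker shapes for the class of title ending. For Fst all PN1a samples lie below all PN1b samples, and in the other 10 panels the groups overlap.

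Fst is described first, as the member that was called. Fst (probe set 98817_at, chromosome 13) had intensities of 7.78, 6.82, 12.6, 14.5 and 14.0 in PN1a 1 to 5, against 45.9, 38.3, 49.9, 36.8, 44.0 and 58.1 in PN1b 1 to 6. The highest PN1a sample was thus well under the lowest PN1b sample, and within PN1a the lower values were those of PN1a 1 and PN1a 2. Mean log2 intensity was 3.41 ± 0.51 in PN1a (SD, n = 5) and 5.49 ± 0.24 in PN1b (SD, n = 6). The log2 difference was -2.08 (SE 0.24, 95% interval -2.59 to -1.57, limma adjusted p = 3.7e-04), which is a fold of 4.23 with an interval of 2.97 to 6.02. By p it ranked 21st of 12422 probe sets.

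The fall of Fst held without the 2 PN1a samples that differed from the rest. Without PN1a 1 and PN1a 2 the log2 difference of Fst was -1.72 (limma adjusted p = 0.00105), and it was called, as were 1.34% of all probe sets. Leaving out 1 sample at a time gave Fst -2.19 to -1.92 with adjusted p of 5.2e-04 to 0.00160. In ending class 1 alone, the PN1a values of 6.82 to 14.5 stood against 44.0 and 58.1 in PN1b 5 and PN1b 6, a difference of -2.25 (95% interval -3.09 to -1.41). With those 7 samples the adjusted p was 0.0931 and Fst was not called, where 0.145% of all probe sets were. A fit of all 11 samples with the title ending as a fixed block gave the same difference of -2.25, which rests on the same 7 samples. PN1b 1 to 4, whose endings no PN1a sample carries, could add at most to the estimate of spread. PN1b 2, the only sample with its ending, added nothing even to that. In that fit the limma adjusted p was 0.0198 and Fst was called, beside 0.250% of all probe sets. Adding 16 to every intensity before log2 brought the Fst difference to -1.18, still called, beside 1.71% of all probe sets.

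**Figure D2:**
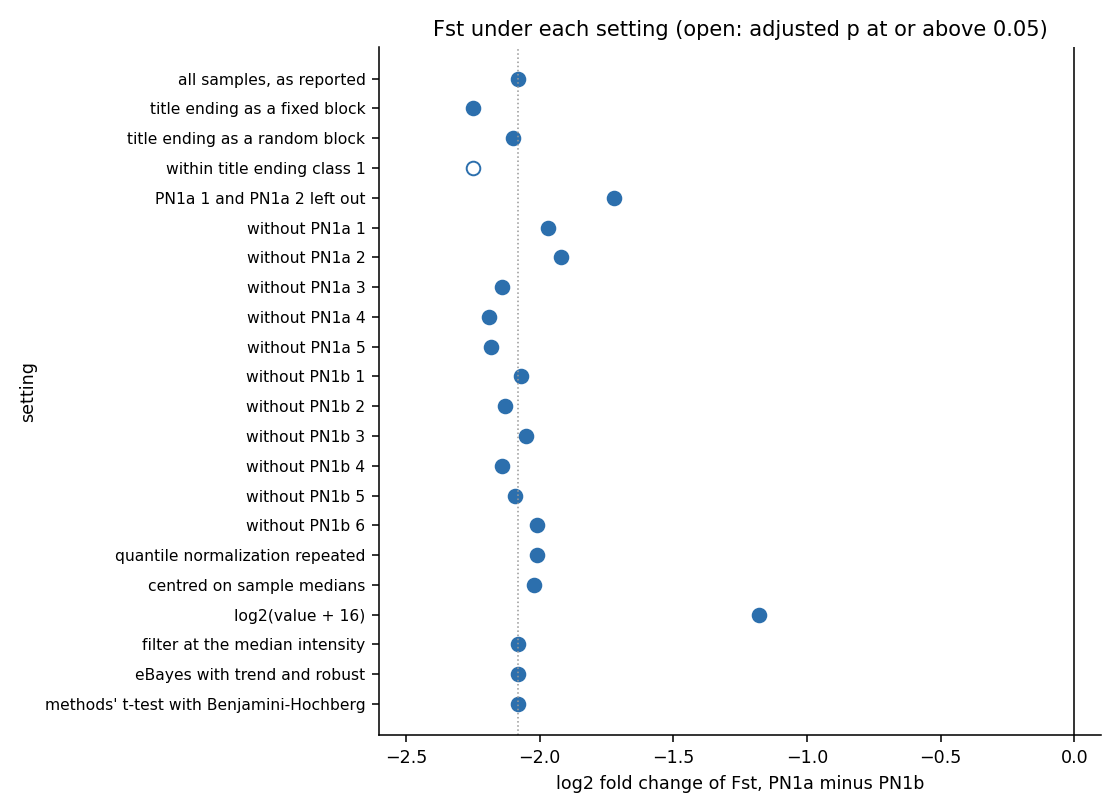
Log2 difference of Fst, PN1a minus PN1b (horizontal axis), with all samples and under 21 other settings (rows). Every point lies between -2.25 and -1.18, and the open point, within ending class 1, is the only one with an adjusted p at or above 0.05.

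Markers of the cell types in these glands were set beside Fst, in the same samples. Among 8 measured basal and myoepithelial markers, Trp63, the transcription factor p63 of basal cells, was called lower in PN1a and 7 of 8 lay below 0, with 1 higher and 4 lower at an unadjusted p under 0.05. Trp63 had 6.28, 26.7, 17.9, 10.9 and 16 in PN1a 1 to 5, against a lowest of 28.6, a median of 38.5 and a highest of 58.5 in PN1b, a log2 difference of -1.55 (limma adjusted p = 0.0262). Summed over the basal list, intensity spanned 592 to 1320 among PN1a samples and 1030 to 1960 among PN1b samples. The basal keratin Krt14 was near the lowest value of the table in both groups (1.01 to 2.83 for PN1a, 1.15 to 4.44 for PN1b). All 11 macrophage markers lay above 0, with 2 called higher and 9 higher at an unadjusted p under 0.05, where 18.9% of all probe sets had such a p in either direction, and their sum spanned 248 to 1290 among PN1a samples and 102 to 253 among PN1b samples. Their part in the Fst difference was not tested.

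Luminal keratins did not run one way. Krt18 was 73.0 and 211 in PN1a 1 and PN1a 2 and 452 to 653 in PN1a 3 to 5, against 639 to 936 in PN1b. Krt19 was 37.5 and 23.4 in PN1a 1 and PN1a 2 and 326 to 440 in PN1a 3 to 5, against 9.99 to 54.2 in PN1b (log2 difference 2.63, limma adjusted p = 0.0808). The luminal list summed to 221 to 1520 for PN1a and 1110 to 1720 for PN1b, and of its 9 measured genes 1 was called higher (Cited1, at 1.88 on the log2 scale) and 0 lower by limma, with 2 higher and 2 lower at an unadjusted p under 0.05 and 1 higher and 0 lower in the methods' t-test. The fibroblast list (8 measured, 0 called, and 0 at an unadjusted p under 0.05 or in the methods' t-test) summed to 713 to 2820 for PN1a and 1960 to 3290 for PN1b. The median of these fibroblast sums was 2650 for PN1a and 2180 for PN1b. The adipocyte list (6 measured, 1 called lower, 3 above 0 and 3 below, median -0.05) summed to 51.4 to 160 for PN1a and 201 to 260 for PN1b. The called gene was Lpl, lipoprotein lipase, at 20.4 to 118 for PN1a and 170 to 229 for PN1b, while the marker Fabp4 was at 1.39 to 5.98 for PN1a and 2.06 to 6.82 for PN1b. All 9 measured genes of the endothelial list lay below 0 (median -0.43). Of these 0 were called, 1 was lower at an unadjusted p under 0.05 and 0 passed the methods' t-test. Sums of the endothelial list were 109 to 440 for PN1a (median 373) and 284 to 497 for PN1b (median 358). Vwf of this list had 2.53 and 1.58 in PN1a 1 and PN1a 2. In PN1a 3 to 5 it had 37.5 to 41.9, within the PN1b range of 31.6 to 51.6. Among immune cells other than macrophages, 6 genes of B and plasma cells were measured and 1 was called lower. Of these 2 lay above 0 and 4 below, and their sum was 76.8 to 148 for PN1a and 105 to 240 for PN1b. Of 8 measured T and NK cell genes 7 lay below 0 (median -0.56) and 0 were called. There 3 were lower at an unadjusted p under 0.05 and 1 was lower in the methods' t-test. The T and NK cell list summed to 33.3 to 44.2 for PN1a and 37.6 to 68.1 for PN1b. Skeletal muscle (7 measured, 0 called, 1 higher at an unadjusted p under 0.05 and 0 in the methods' t-test) summed to 35.4 to 38.8 for PN1a and 28.2 to 42.8 for PN1b. The part of these cell types in the members' values was not tested.

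Genes whose pattern over the 11 samples was most like that of Fst were Cd81, Pcmt1 and Chpt1, by the root mean square difference of centred log2 intensities (0.38, 0.40 and 0.40). Cd81, a tetraspanin of the cell surface, had 49.9, 37.8, 69.1, 74.5 and 77.2 in PN1a 1 to 5 and 152 to 215 in PN1b, and it fell by 1.61 on the log2 scale (limma adjusted p = 0.00155). Pcmt1, which repairs damaged aspartyl residues of proteins, lay at 2.19 to 6.15 in PN1a samples, against 8.17 to 15.5 in PN1b samples, and fell by 1.55 (adjusted p = 0.0133). Chpt1, which makes phosphatidylcholine, lay at 7.31 to 16.9 in PN1a samples, against 25.3 to 52.7 in PN1b samples, and fell by 1.71 (adjusted p = 0.00384). Like Fst, each had its lower PN1a values in PN1a 1 and PN1a 2 and all PN1a samples below all PN1b samples. The measure finds genes that differ between the groups in the way Fst does, so their calls are a description.

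The genes beside Fst on chromosome 13 were not called. Among 12 measured neighbours, 6 on each side in RefSeq gene order (GRCm38.p6), limma called 0, with 1 higher at an unadjusted p under 0.05, and the methods' t-test called 0. Over all probe sets these shares were 2.49%, 18.9% and 5.74% in either direction. With so few genes, 0 called does not set the neighbours apart from other probe sets. The median log2 difference of the neighbours was -0.02. The range was -0.86 for Il6st, the gp130 co-receptor of IL-6 family cytokines, to 0.65 for Emb. The nearest measured neighbours were Ndufs4 at -0.46 and Mocs2 at -0.06.

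The activin subunit genes were not called in either direction. Inhba encodes the beta A subunit that forms activin A. Inhba (100277_at) had 25.3, 4.56, 11.6, 8.63 and 7.84 in PN1a 1 to 5, against a lowest of 1.39, a median of 5.47 and a highest of 8.34 in PN1b. PN1a 1, 3 and 4 were above every PN1b sample, PN1a 2 and 5 lay among them, and PN1b 6 was the lowest of all. Inhba differed by 1.14 on the log2 scale (SE 0.47, 95% interval 0.11 to 2.16), with an unadjusted p of 0.0321 and a limma adjusted p of 0.214. Without PN1a 1 and PN1a 2 it was 1.05, and within ending class 1 it was 1.52 with an interval of -0.20 to 3.25.

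Inhbb encodes the beta B subunit of activin B. Inhbb (160828_at) had 35.8, 88.6, 40.2, 38.3 and 41.4 in PN1a 1 to 5, against 70.5, 66.7, 64.0, 82.7, 34.5 and 61.4 in PN1b 1 to 6. In each group 1 sample broke the pattern: PN1a 2 was the highest of all 11 and PN1b 5 the lowest, while the other PN1a samples lay below the other PN1b samples. For Inhbb the log2 difference was -0.42 (SE 0.28, 95% interval -1.02 to 0.18, limma adjusted p = 0.447). It was -0.62 (adjusted p = 0.268) without PN1a 1 and PN1a 2 and -0.01 within ending class 1 (95% interval -0.94 to 0.93).

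The 3 TGF-beta ligand genes overlapped between the groups. Tgfb1 (101918_at), the isoform best known from immune cells and stroma, had 41.6, 16.8, 12.1, 13.5 and 7.73 in PN1a 1 to 5, against a lowest of 4.56, a median of 9.13 and a highest of 18.0 in PN1b. PN1a 1 alone was above every PN1b sample. Tgfb1 differed by 0.72 on the log2 scale (SE 0.41, 95% interval -0.15 to 1.60, limma adjusted p = 0.365). Without PN1a 1 and PN1a 2 it was 0.21, and within ending class 1 it was 1.05 (95% interval -0.36 to 2.47).

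Tgfb2 (93300_at) had 19.6, 3.48, 18.3, 27.7 and 16.1 in PN1a 1 to 5, against a lowest of 11.6, a median of 18.8 and a highest of 23.6 in PN1b. PN1a 2 was the lowest of all 11, and the other PN1a samples overlapped the PN1b range. The log2 difference of -0.34 (SE 0.43, limma adjusted p = 0.721) became 0.16 without PN1a 2 and 0.05 within ending class 1 (95% interval -1.55 to 1.64).

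Tgfb3, an isoform known from regression of the gland after lactation, was read by a brighter and a dimmer probe set, which differed in sign. The brighter (102751_at) had 41.6, 22.8, 19.3, 23.1 and 11.9 in PN1a 1 to 5, against a lowest of 11, a median of 18.7 and a highest of 31.1 in PN1b, and PN1a 1 was again the highest sample. Its log2 difference was 0.29 (SE 0.34, limma adjusted p = 0.697), or -0.04 without PN1a 1 and PN1a 2 and 0.66 within ending class 1 (95% interval -0.36 to 1.68). The dimmer (161382_at) had 1.0 to 4.41 in PN1a and 2.41 to 4.66 in PN1b, with PN1a 5 at the lowest value of the table, and its log2 difference was -0.37 (SE 0.34, adjusted p = 0.598). Without PN1a 5 it was -0.05, and within ending class 1 it was -0.35. Neither probe set was called.

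None of the 3 receptor genes passed the test, with log2 differences above 0 for the type I receptor and below 0 for the type II receptor and betaglycan. Tgfbr1, the type I receptor kinase, was dim. Tgfbr1 (92427_at) had 7.36, 4.06, 5.03, 4.35 and 4.72 in PN1a 1 to 5, against 2.38, 2.48, 4.32, 4.38, 2.04 and 2.17 in PN1b 1 to 6. PN1a 1, 3 and 5 were above every PN1b sample, and PN1b 3 and PN1b 4 reached the level of the other 2. For Tgfbr1 the log2 difference was 0.83 (SE 0.26, 95% interval 0.27 to 1.38), with an unadjusted p of 0.00638 and a limma adjusted p of 0.102. Within ending class 1 it was 1.24 (95% interval 0.58 to 1.91, adjusted p = 0.404), and all 5 PN1a samples lay above both PN1b samples.

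Tgfbr2, the type II receptor kinase that binds the ligand, was also dim. Tgfbr2 (94702_at) had 4.47, 2.62, 3.63, 5.17 and 4.11 in PN1a 1 to 5, against 5.70, 7.06, 9.38, 7.21, 3.89 and 3.63 in PN1b 1 to 6. The 4 PN1b samples outside ending class 1 were above every PN1a sample, while PN1b 5 and PN1b 6 lay within the PN1a range. For Tgfbr2 the log2 difference was -0.57 (SE 0.27, 95% interval -1.16 to 0.01, limma adjusted p = 0.274) over all samples and 0.05 (95% interval -0.64 to 0.75) within ending class 1. Within the PN1b line, the samples outside ending class 1 had 5.70 to 9.38, against 3.89 and 3.63 in PN1b 5 and PN1b 6. Against PN1a, PN1b 1 to 4 differ in both line and ending, since no PN1a sample carries their endings. The part of the title ending in the Tgfbr2 difference was not tested.

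Tgfbr3 encodes betaglycan, the co-receptor that presents TGF-beta2 and also binds inhibin. Tgfbr3 (102637_at) had 9.65, 12.2, 15.9, 11.5 and 10.1 in PN1a 1 to 5, against 19.0, 41.9, 34.1, 21.0, 20.1 and 8.06 in PN1b 1 to 6. Every PN1a sample lay below 5 of the PN1b samples and above PN1b 6. The log2 difference was -0.87 (SE 0.35, 95% interval -1.62 to -0.11), with an unadjusted p of 0.0271 and a limma adjusted p of 0.199. Without PN1b 6 it was -1.15 with an adjusted p of 0.0415 and was called, and within ending class 1 it was -0.13 (95% interval -0.99 to 0.74).

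Smad7, the inhibitory Smad that TGF-beta itself induces, did not separate the groups. Smad7 (92216_at) had 18.4, 16, 24.3, 29.7 and 29.0 in PN1a 1 to 5, against 19.7, 20.1, 18.0, 22.6, 19.8 and 53.4 in PN1b 1 to 6. PN1b 6 was far above the other 5 PN1b samples, which kept to a narrow range, and PN1a 3, 4 and 5 lay above those 5. The log2 difference was -0.05 (SE 0.29, 95% interval -0.67 to 0.58, limma adjusted p = 0.950), and without PN1b 6 it was 0.19 (adjusted p = 0.686). Within ending class 1 it was -0.52 (95% interval -1.48 to 0.45).

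For the 10 member probe sets that were not called, adjusted p ran from 0.102 to 0.950 and SE from 0.26 to 0.47 on the log2 scale, and the 95% interval held 0 for 7 of them. The highest and lowest samples differed between members. PN1a 1 was the highest of the 11 samples for 4 member probe sets (Tgfb1, the brighter Tgfb3, Tgfbr1 and Inhba), PN1a 2 was the lowest for 4 (Tgfb2, Tgfbr2, Fst and Smad7), PN1b 5 was the lowest for 3 (the brighter Tgfb3, Tgfbr1 and Inhbb) and PN1b 6 was the lowest for 3 (Tgfb1, Tgfbr3 and Inhba). PN1b 6 was also the highest for Fst and Smad7, and the remaining extremes were spread over PN1a 2, 4 and 5 and PN1b 2, 3 and 4.

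**Figure D3:**
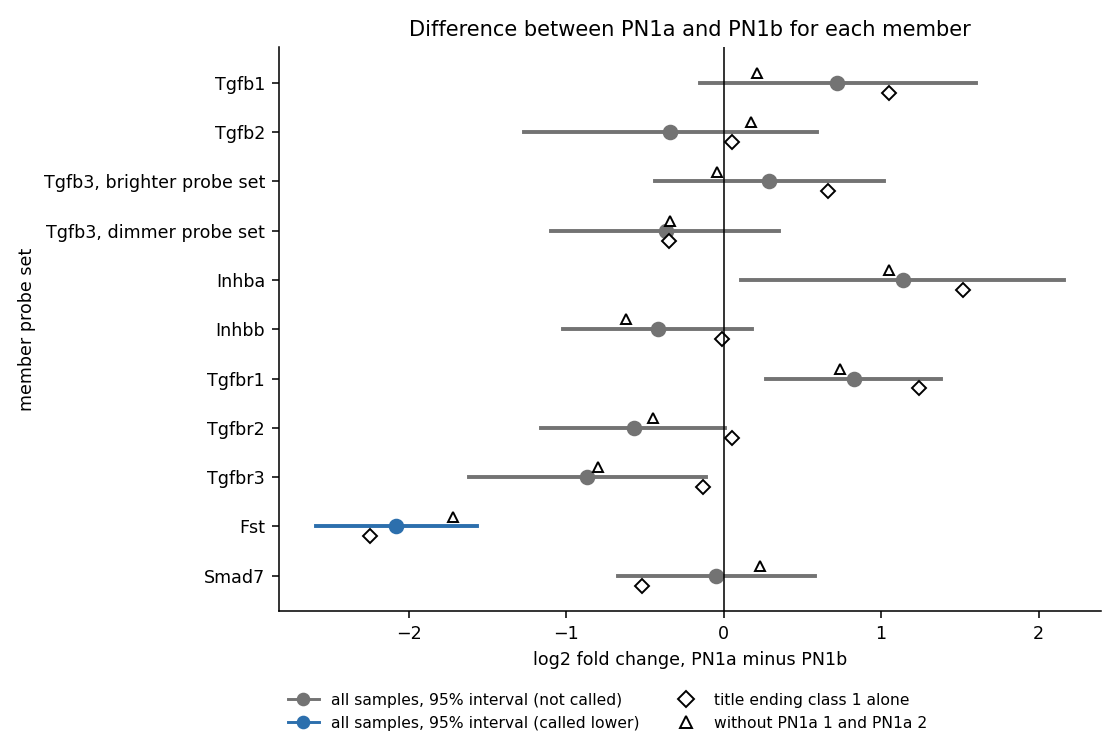
Log2 difference, PN1a minus PN1b (horizontal axis), of the 11 member probe sets in order of role, with the 95% interval over all samples (circles and bars), the value within ending class 1 (diamonds) and the value without PN1a 1 and PN1a 2 (triangles). Fst at -2.08 is the only called member. Within ending class 1, which holds 2 PN1b samples, Tgfb2, Inhbb, Tgfbr2 and Tgfbr3 lie near 0 (0.05, -0.01, 0.05 and -0.13). Their 95% intervals there are wide (-1.55 to 1.64, -0.94 to 0.93, -0.64 to 0.75 and -0.99 to 0.74). Each of these intervals also holds the difference over all samples.

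The wider pathway was described from 7 lists of 126 genes, 100 of them measured, each by its brightest single-gene probe set. In these lists 3 genes were called higher and 1 lower, where 2.68% of all genes read in this way were called (0.836% higher and 1.84% lower). The differences fell evenly about 0, with 50 genes above it and 50 below, and their median was 0.00, against -0.03 over all genes.

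**Figure D4:**
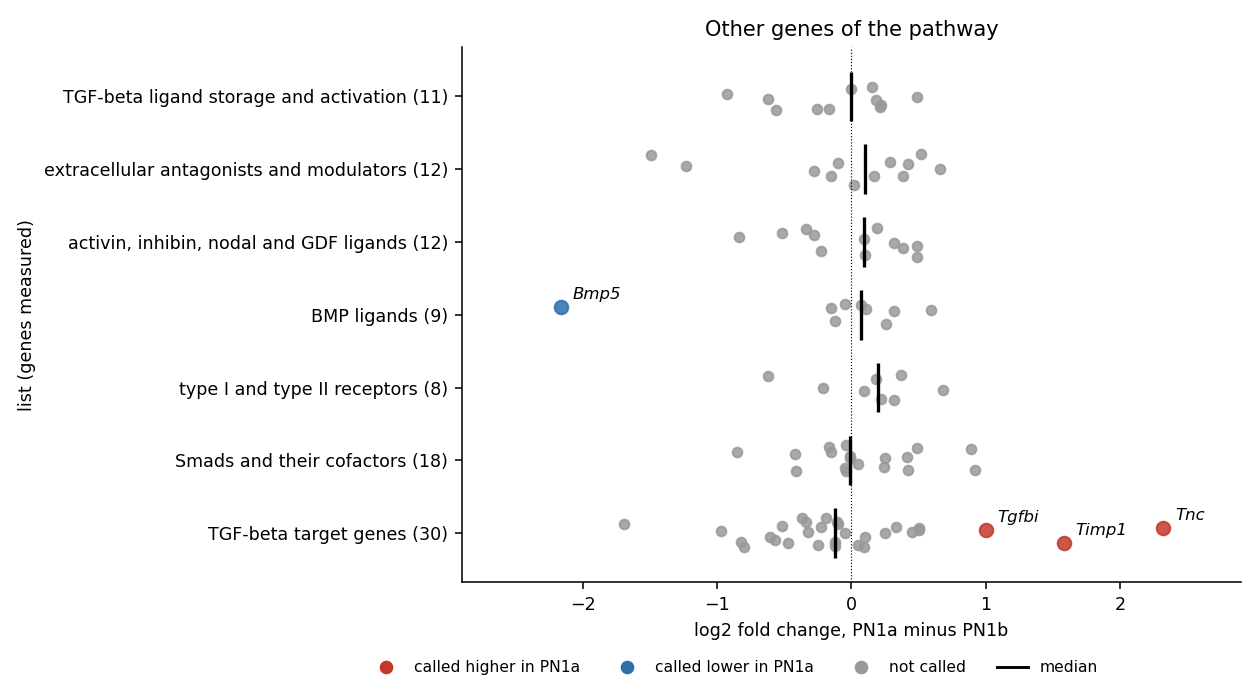
Log2 difference, PN1a minus PN1b (horizontal axis), of the measured genes of 7 pathway lists (rows, with the number measured), with a line at each list's median. Tnc, Timp1 and Tgfbi are called higher and Bmp5 is called lower, and the list medians lie between -0.12 and 0.20.

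All 3 genes called higher belong to the list of TGF-beta target genes, of which 30 of 31 were measured. In that list 3 were called higher and 0 lower, 11 lay above 0 and 19 below, and the median was -0.12. At an unadjusted p under 0.05 stood 3 higher and 5 lower, and the methods' t-test took 3 higher and 1 lower (Acta2). Tnc encodes tenascin C, a matrix glycoprotein of remodeling stroma. Tnc had 352, 169, 54.6, 48.8 and 48.5 in PN1a 1 to 5, against a lowest of 12.6, a median of 20.9 and a highest of 26.7 in PN1b. All PN1a samples lay above all PN1b samples, and PN1a 1 and PN1a 2 were the highest. It rose by 2.32 on the log2 scale (SE 0.48, limma adjusted p = 0.0259), and without PN1a 1 and PN1a 2 the rise was 1.41 (adjusted p = 0.0237). The call was lost without PN1a 2, PN1b 1, PN1b 3 or PN1b 4, with adjusted p of 0.0541 to 0.0652 in those 4 fits. A 2nd, dimmer probe set of Tnc was called as well, with a rise of 2.42 (adjusted p = 0.0202).

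Tgfbi, a secreted matrix protein named for its induction by TGF-beta, had 67.2, 42.5, 32.9, 40.8 and 37.0 in PN1a 1 to 5, against a lowest of 14.8, a median of 21.6 and a highest of 29.2 in PN1b. The groups did not overlap, and the log2 rise was 1.0 (SE 0.23, limma adjusted p = 0.0384). The call held without PN1a 5, PN1b 5 or PN1b 6 and was lost without any of the other 8 samples, with adjusted p of 0.0325 to 0.0931 over the 11 fits, and without PN1a 1 and PN1a 2 together the difference was 0.78 (adjusted p = 0.128). Its dimmer probe set gave 0.18 (adjusted p = 0.750). With at most 2.77 in PN1a and 2.28 in PN1b, that probe set was too near the lowest value of the table to decide whether Tgfbi rose.

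Timp1, an inhibitor of matrix metalloproteinases, had 247, 58.9, 95.7, 109 and 101 in PN1a 1 to 5, against 32, 46.9, 26.9, 23.6, 86.8 and 28.2 in PN1b 1 to 6. PN1b 5 lay above PN1a 2, and the other samples were separated by group. The log2 rise was 1.58 (SE 0.38, limma adjusted p = 0.0476). The call held without PN1a 2 or PN1b 5 and was lost without any of the other 9 samples, with adjusted p of 0.0128 to 0.111 over the 11 fits. Its dimmer probe set ran the other way, at -0.45 (adjusted p = 0.580). That probe set read at most 3.36 in PN1a and 4.79 in PN1b, too near the lowest value of the table to decide the direction.

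Acta2 had the next smallest adjusted p among the target genes. Acta2, smooth muscle actin, which is also a myoepithelial marker, had 350 to 714 in PN1a and 622 to 1100 in PN1b, a log2 difference of -0.82 (limma adjusted p = 0.0863). The part of the summed macrophage markers in the 3 called target genes was not tested either.

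Bmp5, a bone morphogenetic protein, was the 1 gene called lower, among 9 measured BMP ligand genes with a median of 0.07. Bmp5 had 1.59, 2.79, 1.42, 1.32 and 1.99 in PN1a 1 to 5, against 10.4, 12, 17.3, 17.3, 3.05 and 2.06 in PN1b 1 to 6. PN1b 1 to 4 were high, and PN1b 5 and PN1b 6, which share the PN1a title ending, were near the PN1a level. The log2 difference of Bmp5 was -2.16 (SE 0.53, limma adjusted p = 0.0489) over all samples, and -0.52 (95% interval -1.31 to 0.28, adjusted p = 0.737) within ending class 1. The call held without PN1b 5 or PN1b 6 and was lost without any of the other 9 samples, with adjusted p of 0.0102 to 0.111 over the 11 fits. All PN1a values of Bmp5 were near the lowest value of the table, 1.0. With 16 added to every intensity before log2, the difference was -0.52 (limma adjusted p = 0.0979) and Bmp5 was not called.

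**Figure D5:**
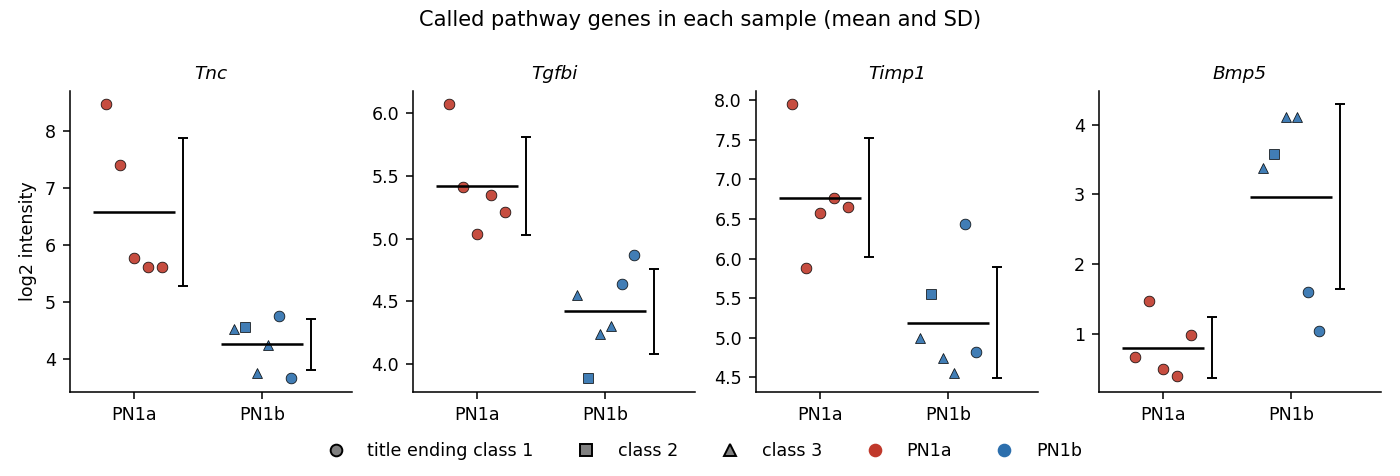
Log2 intensity (vertical axis, a separate range for each panel) of the 4 called pathway genes in 5 PN1a (red, left) and 6 PN1b (blue, right) samples, with the mean, the SD and marker shapes for the class of title ending. Bmp5 in PN1b falls into 4 high samples of ending classes 2 and 3 and 2 low samples of ending class 1.

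None of these 4 genes was called within ending class 1, where Fst was not called either and 0.145% of all probe sets were. There the log2 difference was 2.37 for Tnc, against 2.32 over all samples, and -0.52 for Bmp5, against -2.16. For Tgfbi it was 0.66 and for Timp1 1.14, both smaller than over all samples. The intervals were 0.56 to 4.18 for Tnc, -0.06 to 1.38 for Tgfbi, -0.17 to 2.45 for Timp1 and -1.31 to 0.28 for Bmp5. With the ending as a block the log2 differences were the same. None of the 4 was called by limma in either fit, with adjusted p from 0.364 to 0.737.

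In the remaining 5 lists no gene passed the limma test. Of 12 measured extracellular antagonists and modulators, the median was 0.10, 1 was lower at an unadjusted p under 0.05 and 0 passed the methods' t-test. The smallest limma adjusted p was that of Fmod, fibromodulin, a proteoglycan that binds TGF-beta in the matrix. Fmod had 23.8 to 108 in PN1a and 66.7 to 242 in PN1b (log2 difference -1.49, limma adjusted p = 0.0863). Fstl1, a secreted protein related to follistatin, was at 38.6 to 315 in PN1a and 36.8 to 148 in PN1b (log2 difference 0.66, adjusted p = 0.494). Dcn, decorin, another TGF-beta binding proteoglycan, had 184 and 48.8 in PN1a 1 and PN1a 2. In PN1a 3 to 5 it had 680 to 820, within the PN1b range of 676 to 989. The log2 difference of Dcn over all samples was -1.23 (limma adjusted p = 0.295).

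Among 12 other activin, inhibin, nodal and GDF ligand genes the median was 0.09, with 1 higher and 2 lower at an unadjusted p under 0.05 in limma. Gdf10, a ligand also called BMP3b, had all PN1a samples (2.87 to 5.35) below all PN1b samples (6.32 to 12), with a log2 difference of -0.84 and an adjusted p of 0.0689 in limma. In the list of 8 measured type I and type II receptors, with a median of 0.20 and 1 gene lower at an unadjusted p under 0.05, the activin receptor gene Acvr2b also had all PN1a samples (7.94 to 9.51) below all PN1b samples (10.9 to 16.7), with a log2 difference of -0.62 (adjusted p = 0.0716). The other type II activin receptor gene, Acvr2a, had 13.2 to 17.1 in PN1a and 9.06 to 15.7 in PN1b (log2 difference 0.32, adjusted p = 0.379). Neither Gdf10 nor Acvr2b was called in limma. At p under 0.01 the methods' t-test took both as lower, and after Benjamini-Hochberg it took Acvr2b.

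Storage and activation of the ligands was covered by 11 measured genes with a median of 0.00, of which 1 was lower at an unadjusted p under 0.05 in limma and 0 passed the methods' t-test. Ltbp4, which tethers latent TGF-beta to the matrix, had 5.78 to 23.4 in PN1a samples and 17.1 to 41.6 in PN1b samples (log2 difference -0.93, limma adjusted p = 0.187), and Furin, the protease that cuts the ligand precursors, had 25.1 to 96.3 in PN1a and 68.6 to 133 in PN1b (-0.62, adjusted p = 0.313). Of 18 measured Smads and cofactors, with a median of -0.01, 1 was higher and 1 lower at an unadjusted p under 0.05 in limma and 0 passed the methods' t-test. Hgs, an endosomal protein that brings Smad2 to the receptor, had all PN1a samples (78.2 to 91.8) above all PN1b samples (57.7 to 72.5), at a log2 difference of 0.42 (adjusted p = 0.148). Skil, which encodes the Smad repressor SnoN, had 3.61 to 18.4 in PN1a and 3.16 to 10.2 in PN1b (0.92, adjusted p = 0.272).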

How the data were processed

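RNA of mammary glands bearing PN1a (5 samples) or PN1b (6 samples) lesions was hybridized to Affymetrix MG_U74Av2 arrays, 1 array a sample. Quantile normalization and the PM-MM model (perfect match minus mismatch) of dChip were applied by the authors, whose deposited table holds a linear intensity for 12488 probe sets. No dChip version is given in the sources used. Subtraction of mismatch signal makes dim probe sets less precise, and 0.817% of the values lie at the lowest intensity of 1.0. After removal of 66 control probe sets, log2 of the deposited intensities was taken without a pseudocount.

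Groups came from the sample labels, and samples were numbered within each line in accession order. At most 1.24% of values were identical between any 2 samples, so each was counted as a replicate. Probe sets were named through the platform annotation, with symbols updated by gene identifier: 10833 carried 1 symbol, 396 several and 1193 none. The lines were compared by limma 3.58.1 under R 4.3.3 (PN1a minus PN1b, lmFit and eBayes, no covariate, two-sided, Benjamini-Hochberg over 12422 probe sets). The steps were tested on simulated data. Tables and figures were made with Python 3.11.15, pandas 2.3.3 and matplotlib 3.10.9.

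The members and the 7 pathway and 9 marker lists were chosen with earlier results of these data known. The text names all members and part of the genes that the naming rule takes (called genes of each list, otherwise up to 4 with the smallest adjusted p, and the 3 genes most like a called member). The neighbours of Fst and the values of Krt14, Krt18 and Fabp4 were chosen after their values were seen. Alternatives were the title ending as a fixed or random block (duplicateCorrelation), ending class 1 alone, samples left out, repeated normalization, centring on the median, log2(value + 16), a filter at the median, a trended and robust eBayes, probe sets averaged within a gene, other fold thresholds and the methods' t-test.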

Additional observations from a re-analysis of the deposited data

Results flagged for a closer look

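In 4 of the 30 sets of values tested (each member or called pathway probe set in each line), 1 sample lay far from the others of its line, where chance gives about 1 in 20. For Tgfb2, PN1a 2 had 3.48 while the other PN1a samples had 16.1 to 27.7. For Inhbb, PN1a 2 had 88.6 while the other PN1a samples had 35.8 to 41.4, and PN1b 5 had 34.5 while the other PN1b samples had 61.4 to 82.7. For Smad7, PN1b 6 had 53.4 while the other PN1b samples had 18.0 to 22.6.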

How the results depend on the processing

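No paired analysis was possible because the labels carry no replicate numbers that PN1a and PN1b share. Over all probe sets 108 were called higher and 201 lower. These counts were 12 and 19 with the title ending as a fixed block, 58 and 104 with it as a random block, and 6 and 12 in ending class 1 alone. Without PN1a 1 and PN1a 2, 82 were called lower. With log2(value + 16), 65 were called higher, and with the filter at the median 303 were called lower. The methods' t-test gave 271 and 442 at p under 0.01, and 50 and 95 after Benjamini-Hochberg. Leaving out 1 sample at a time gave 44 to 182 higher and 79 to 377 lower, with the lowest counts without PN1b 3 and PN1b 1 and the highest without PN1b 5. Centring on the median gave 155 and 186, and repeated quantile normalization 137 and 185.

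Of the members, 1 was called lower, with 0 in ending class 1 alone, where Fst had -2.25 and an adjusted p of 0.0931, and 1 to 2 when 1 sample was left out, the 2nd being Tgfbr3 (-1.15) without PN1b 6. No member was called higher in any limma fit, and Fst was past an adjusted p of 0.05 in 20 of 21 alternatives. Signs turned for uncalled members only. Tgfb2 was 0.05 with the fixed block and in ending class 1, 0.17 without PN1a 1 and PN1a 2 and 0.16 without PN1a 2 (-0.59 to 0.16 over samples left out in turn). The brighter Tgfb3 was -0.04 without PN1a 1 and PN1a 2 and as the mean of both probe sets. Tgfbr2 was 0.05 with the fixed block and in ending class 1. Smad7 was 0.23 without PN1a 1 and PN1a 2, 0.03 to 0.19 without PN1a 1, PN1a 2 or PN1b 6 (-0.14 to 0.19 over samples left out in turn), 0.02 with repeated normalization and 0.01 with centring.

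Of the other pathway genes, 3 were called higher and 1 lower. The higher count was 0 with the fixed block, in ending class 1 and in the methods' t-test after Benjamini-Hochberg, 1 with the random block, without PN1a 1 and PN1a 2, with log2(value + 16) and with probe sets averaged within a gene, and 0 to 3 when 1 sample was left out. The lower count was 0 with either block, in ending class 1, without PN1a 1 and PN1a 2, with centring and with log2(value + 16), 2 with the filter at the median and with trend and robust, 4 in the methods' t-test at p under 0.01, and 0 to 2 when 1 sample was left out. The causes of these shifts were not tested. The filter at the median left out 4 dim member probe sets (Tgfbr1, Tgfbr2, Inhba and the dimmer Tgfb3) and Bmp5, which gave no value there.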
